A study of Mus musculus with 76 samples.

Results

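Forkhead (Fox) genes encode transcription factors that share a winged-helix DNA-binding domain. The 8 genes described here are Foxa1, Foxa2, Foxb1, Foxc1, Foxd1, Foxp1, Foxp2 and Foxp4. They were taken as a fixed list of family members of the developing forebrain and its surroundings, and are 8 of the 45 Fox genes and of the 56923 genes in the count tables. RNA was measured in the diencephalon, the part of the embryonic forebrain that forms the thalamus, prethalamus and hypothalamus, at E11.5 and E17.5 (days of embryonic development). There were 4 wild type and 4 hs754-humanized samples at each stage, 16 in all. Wild type mice were C57BL/6J. In the humanized line, made by CRISPR/Cas9 and backcrossed to that strain, the human sequence of the enhancer hs754 replaces its mouse counterpart on both copies of chromosome 13. Each sample was a pool from 1 litter, of 6 embryos for E11.5 and of 3 for E17.5. Peak lists came from ChIP-seq of H3K27ac, H3K4me3 and H3K27me3, in 2 lists for each genotype (E11.5) or 3 lists (E17.5), and of CTCF, in 3 lists for each genotype (E17.5 alone).

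Foxa1 and Foxa2 are pioneer factors of the floor plate, the ventral midline of the neural tube, where Foxa2 acts with the signal Shh. Foxd1 marks the prethalamus and parts of the hypothalamus, Foxb1 the mammillary region at the back of the hypothalamus, and Foxc1 the head mesenchyme and the cells around vessels and the meninges. Foxp1, Foxp2 and Foxp4 form a subfamily whose proteins pair with each other and mostly repress transcription, and Foxp2 is known from thalamic neurons. H3K4me3 and H3K27ac mark active promoters, H3K27me3 is the Polycomb mark of silenced developmental genes, and CTCF is a DNA-binding protein that delimits chromatin loops.

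The sequences shown lie before starts that the promoter results below describe, and their link to any mark was not tested. Each is 200 bases just before a transcript start in GRCm39, the build of the deposited files. The first is shown for its match to the forkhead core TGTTTAC, searched on both strands and in capitals, where it reads GTAAACA because the match is on the opposite strand. Foxa1 was the only 1 of the 8 members with this core before its canonical start, and 2.08% of 21580 protein-coding genes had it in the same window. In the other 4, capitals mark CpG dinucleotides, which concentrate at promoters that carry H3K4me3 or H3K27me3. Foxp4 is shown at its outer start and at a start 45.8 kb inside the gene, where H3K4me3 differed between stages.
Foxa1, chr12:57592945-57593144, minus strand: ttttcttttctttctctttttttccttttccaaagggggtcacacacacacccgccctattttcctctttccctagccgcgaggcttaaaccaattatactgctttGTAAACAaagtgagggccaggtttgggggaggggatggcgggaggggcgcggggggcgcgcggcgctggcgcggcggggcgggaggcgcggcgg
Foxa2, chr2:147889006-147889205, minus strand: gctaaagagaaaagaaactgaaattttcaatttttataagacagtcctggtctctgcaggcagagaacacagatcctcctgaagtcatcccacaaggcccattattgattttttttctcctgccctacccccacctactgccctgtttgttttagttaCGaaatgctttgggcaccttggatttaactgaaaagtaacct
Foxd1, chr13:98490550-98490749, plus strand: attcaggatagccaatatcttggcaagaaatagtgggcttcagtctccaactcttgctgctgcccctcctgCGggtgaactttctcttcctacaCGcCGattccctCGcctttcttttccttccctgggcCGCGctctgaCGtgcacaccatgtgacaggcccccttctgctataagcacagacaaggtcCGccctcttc
Foxp4 outer start, chr17:48235700-48235899, minus strand: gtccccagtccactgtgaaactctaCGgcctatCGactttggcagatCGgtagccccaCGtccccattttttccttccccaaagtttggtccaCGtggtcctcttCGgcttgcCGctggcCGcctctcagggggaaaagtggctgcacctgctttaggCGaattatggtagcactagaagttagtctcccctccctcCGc
Foxp4 inner start, chr17:48189879-48190078, minus strand: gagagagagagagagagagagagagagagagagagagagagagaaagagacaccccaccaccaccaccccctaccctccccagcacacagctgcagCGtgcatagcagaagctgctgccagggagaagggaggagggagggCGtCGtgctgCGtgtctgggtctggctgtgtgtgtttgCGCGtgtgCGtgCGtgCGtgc
These windows held 1 CpG before Foxa2, 8 before Foxd1, 10 before the outer Foxp4 start and 9 before the inner one. Over 500 bases on either side of the canonical start, the observed over expected CpG ratio was 0.56 for Foxa2, close to the median of 0.58 over all genes. It was 0.72 to 0.94 for the other 7 members, with Foxc1 the highest.

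The RNA libraries held between 16414369 and 24272569 counts on genes. The thalamic markers Gbx2, Tcf7l2, Lhx2, Lhx9, Rora, Slc17a6 and Prox1 summed to 815 to 2500 CPM (a gene's reads relative to the library's TMM-scaled total) over the 16 samples. The wild type E17.5 replicate 1 stood apart, with a mean correlation of 0.942 with its own group against 0.973 to 0.978 for the other wild type E17.5 samples and at least 0.988 for all others. These are bulk samples, so fewer cells of a type and less RNA per cell cannot be told apart.

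The stage comparison asked how each gene's RNA changed between E11.5 and E17.5. In wild type, 2 of the 8 members rose (Foxp1 and Foxp2) and 5 fell (Foxa1, Foxa2, Foxc1, Foxd1 and Foxp4), while Foxb1 did not pass the test. The calls had the same direction in the humanized samples, which the wild type fit does not use. Over all genes, 29% of 18583 rose and 26.7% fell in wild type, and 38.2% of 18781 rose and 39.5% fell in the humanized samples. A gene was called where its adjusted p (Benjamini-Hochberg, edgeR quasi-likelihood test) was under 0.05. The median log2 fold change of the members was -1.04 in wild type, beside -0.01 over all genes tested, and -1.46 against -0.04 in the humanized samples. The share of all genes whose stages did not overlap was not counted, so such gaps below describe single members alone.

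**Figure D1:**
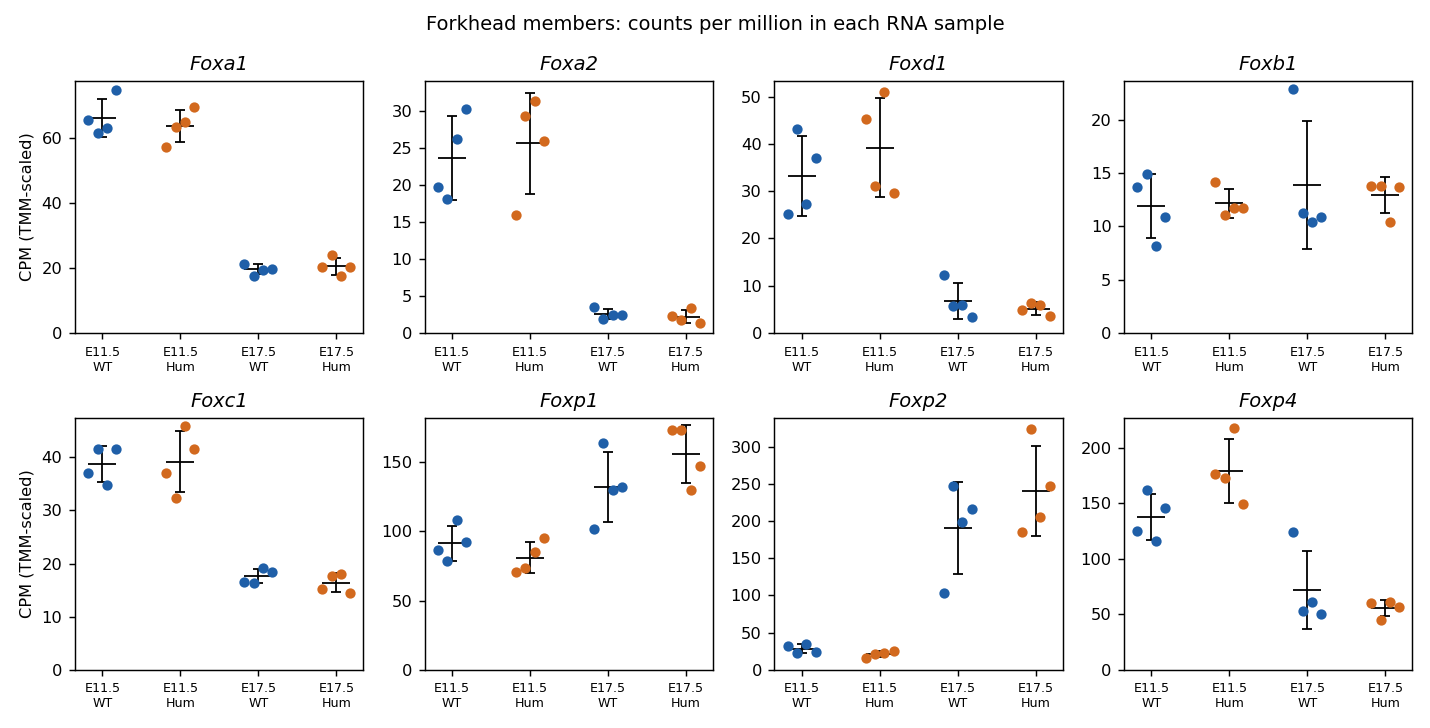
CPM of each member (y axis) in the 16 RNA samples, by stage and genotype (WT, wild type; Hum, hs754-humanized); points are samples, horizontal bars are means and whiskers are SD (n = 4). Foxa1, Foxa2, Foxc1 and Foxd1 sit lower in every E17.5 sample than in any E11.5 sample, Foxp2 sits higher, and 1 wild type E17.5 sample stands apart for Foxb1 (22.9) and Foxp4 (124).

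Foxa2, the floor plate member, fell most of the 8. The gene lies at chr2:147884797-147889005. Wild type samples had 19.8, 18.1, 26.2 and 30.3 CPM at E11.5, and 3.5, 1.96, 2.44 and 2.4 CPM at E17.5. Humanized samples had 15.9, 29.3, 31.4 and 25.9 CPM, then 2.35, 1.70, 3.37 and 1.34 CPM. The stages did not overlap in either genotype. The log2 fold change was -3.21 ± 0.26 (SE, adjusted p = 4.08e-06) in wild type, a 9.25-fold decrease, and -3.55 ± 0.29 (adjusted p = 2.95e-07) in humanized samples. Foxa2 was still counted at E17.5, with 21 to 67 reads per sample.

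Foxa1 (chr12:57587414-57593702) also fell. Its CPM in wild type was 65.5, 61.5, 63.0 and 74.5 at E11.5, then 21.3, 17.6, 19.5 and 19.8. The humanized values were 57.2 or more at E11.5 and 23.8 or less at E17.5. The stages were far apart in both genotypes. Its log2 fold change was -1.77 ± 0.16 (adjusted p = 8.11e-06) in wild type and -1.64 ± 0.13 (adjusted p = 2.51e-07) in humanized samples.

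The other floor plate genes fell with them. All 7 of the listed genes (Shh, Corin, Ferd3l, Spon1, Ntn1, Nkx2-9 and Lmx1a) fell in both genotypes, with a median log2 fold change of -2.34 in wild type. Shh, the secreted midline signal, fell by 3.71 ± 0.24 on the log2 scale, and Lmx1a, a midline and dopaminergic progenitor factor, by 2.10 ± 0.18. The summed CPM of the list was 431 to 578 in wild type at E11.5, then 143 to 252, of which 252 is that of replicate 1 and the next highest is 153. Among genes of the ventral midbrain and subthalamic region, whose progenitors also depend on Foxa factors, Barhl1 and Lmx1b fell in wild type. Slc6a3, the dopamine transporter, rose there by 6.47 ± 0.39 on the log2 scale. Slc6a3 had too few reads in the E11.5 samples to be tested between genotypes, so the size of its rise rests on few reads. Th, the rate-limiting enzyme of dopamine synthesis, had a log2 fold change of 0.40 ± 0.25 (adjusted p = 0.206) in wild type.

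Foxd1 (chr13:98490750-98495813), the prethalamic and hypothalamic member, fell as well. In wild type it had 25.2, 43.2, 27.2 and 37.0 CPM at E11.5, then 12.3, 5.71, 5.92 and 3.33 CPM. The high E17.5 value is that of replicate 1. In humanized samples it had 45.3, 31.1, 50.9 and 29.6 CPM, then 4.91, 6.31, 6.02 and 3.50. The stages did not overlap. The change was -2.29 ± 0.37 (adjusted p = 0.000389, log2 scale) in wild type, -2.76 without that sample, and -2.92 ± 0.23 (adjusted p = 2.16e-07) in humanized samples. The other prethalamic genes did not fall with it. Dlx1, Dlx5, Dlx6, Isl1 and Meis2 rose in both genotypes and Pax6 fell. Dlx1 rose by 1.54 ± 0.21 and Isl1, a factor of differentiating neurons, by 3.62 ± 0.38 (log2, wild type). Dlx2 (0.25 ± 0.37) did not pass the test.

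Foxb1 (chr9:69664992-69668222), the mammillary member, is the one with no stage call. Wild type CPM was 13.7, 14.9, 8.14 and 10.9 at E11.5, then 22.9, 11.3, 10.4 and 10.9. Humanized CPM was 14.2, 11.1, 11.7 and 11.7, then 13.8, 13.8, 10.4 and 13.7. The stages overlapped in both genotypes. Foxb1's log2 fold change was 0.21 ± 0.30 (adjusted p = 0.573) in wild type, -0.16 without replicate 1, and 0.08 ± 0.15 (adjusted p = 0.633) in humanized samples. With offsets for the GC content of transcripts, the humanized value was 0.74 (adjusted p = 0.000528). The antisense lncRNA B230323A14Rik overlaps Foxb1, and the unstranded column drops reads on both genes: it held 161 to 438 reads per sample, and the reverse-strand column 301 to 730. On that column the wild type change was 0.19. Among mammillary genes, Sim2 and Lhx5 fell in both genotypes. Sim1 (0.67 ± 0.35), Nkx2-1 (0.42 ± 0.37) and Nkx2-4 (0.04 ± 0.39) did not pass the test in wild type, and Sim1 rose by 1.40 ± 0.38 in humanized samples.

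Foxc1 (chr13:31990616-31996459), the mesenchymal member, fell. Wild type samples held 37.1, 41.6, 34.8 and 41.6 CPM at E11.5, then 16.6, 16.4, 19.1 and 18.5 CPM. Humanized samples held 32.4 to 45.9, then 14.4 to 18.1 CPM. The stages did not overlap. On the log2 scale the change was -1.15 ± 0.16 (adjusted p = 0.000139) in wild type and -1.27 ± 0.14 (adjusted p = 5.18e-06) in humanized samples. A lncRNA on the same strand, Gm11379, overlaps Foxc1. Of the 10 mesenchymal genes, 5 fell and 3 rose in wild type, and 7 fell and 2 rose in humanized samples. Twist1, a factor of cranial mesenchyme, fell by 3.36 ± 0.23 on the log2 scale and the collagen gene Col1a1 by 1.99 ± 0.26. Aldh1a2, which makes retinoic acid in the meninges, rose by 3.73 ± 0.35, and Dcn, a proteoglycan of connective tissue, by 1.43 ± 0.19. The summed CPM of the list was 805 to 1090 in wild type at E11.5, then 296 to 545 (350 at most without replicate 1), so mesenchymal RNA was present in every library, and its part in the Foxc1 values was not tested.

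Foxp2 (chr6:14901287-15441976) had the largest rise of the 8. From 31.3, 22.9, 34.8 and 23.8 CPM in wild type at E11.5 it went to 103, 247, 199 and 216 CPM. In humanized samples it was 16.4, 21.1, 23.0 and 25.1, then 186, 324, 206 and 247. The stages did not overlap, and the lowest E17.5 value was again wild type replicate 1. The log2 fold change was 2.75 ± 0.29 (adjusted p = 2.1e-05) in wild type, 2.95 without replicate 1, and 3.48 ± 0.21 (adjusted p = 2.29e-08) in humanized samples.

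Foxp1 (chr6:98902299-99499685) rose by less. Its CPM in wild type was 86.7, 78.4, 108 and 92.1 at E11.5, then 102, 164, 130 and 132. The wild type stages overlapped through replicate 1 at E17.5. Humanized CPM was 70.4 to 95.2, then 130 to 173, without overlap. The log2 fold change was 0.52 ± 0.20 (adjusted p = 0.0424) in wild type and 0.93 ± 0.14 (adjusted p = 8.41e-05) in humanized samples. The wild type call was lost without a filter on low counts (adjusted p = 0.0932), under the replicate block (adjusted p = 0.0938) and when 1 of 6 of the 8 samples was left out (adjusted p up to 0.124). It was 0.62 (adjusted p = 0.00131) without wild type E17.5 replicate 1. The gene Gm20696 overlaps Foxp1 on the same strand, and reads on both are counted for neither.

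Foxp4 (chr17:48178058-48235699) moved the other way. Its CPM in wild type was 125, 162, 116 and 146 at E11.5, then 124, 52.6, 60.6 and 50.2. The value of 124 is that of replicate 1 and lies within the E11.5 range. In humanized samples it was 176, 173, 218 and 149, then 59.8, 44.8, 60.6 and 56.4, without overlap. The log2 fold change was -0.94 ± 0.29 (adjusted p = 0.0185) in wild type, -1.35 (adjusted p = 3.27e-06) without replicate 1, and -1.70 ± 0.14 (adjusted p = 2.87e-07) in humanized samples. The wild type call was lost when E11.5 replicate 2 or E17.5 replicate 2, 3 or 4 was left out (adjusted p = 0.0512 to 0.0573).

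**Figure D2:**
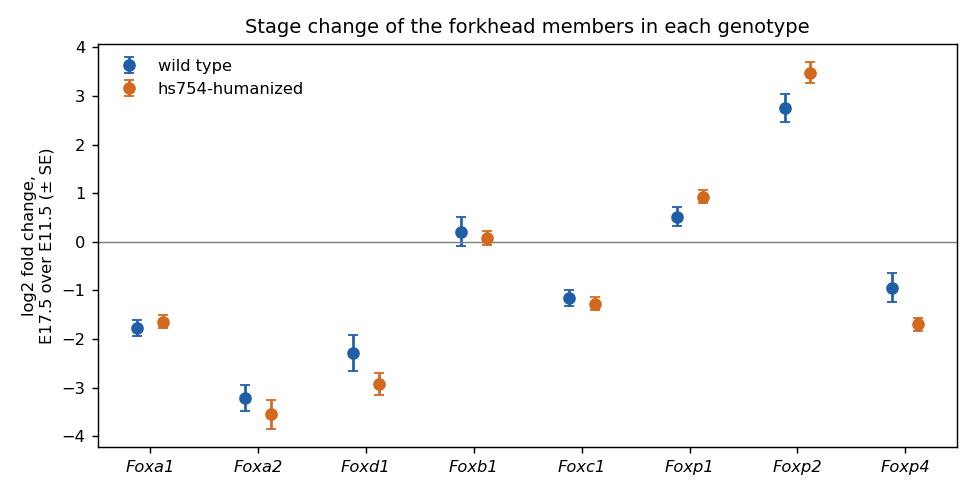
Log2 fold change of E17.5 over E11.5 for each member (y axis) with its SE, from separate fits of 8 wild type samples and 8 hs754-humanized samples. Foxa2 is lowest (-3.21 and -3.55), Foxp2 highest (2.75 and 3.48), and Foxb1 lies at 0.21 and 0.08.

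Levels of different genes were compared per length, as reads per kilobase of exon, scaled to depth (RPKM). In wild type at E11.5 the order was Foxp4 (25.1 ± 3.81, SD), Foxa1 (19.7 ± 1.73), Foxa2 (6.96 ± 1.66), Foxc1 (6.64 ± 0.577), Foxd1 (6.55 ± 1.67), Foxp1 (5.65 ± 0.784), Foxb1 (4.00 ± 1.01) and Foxp2 (1.63 ± 0.337). Neighbours in this order overlapped in their ranges, apart from Foxa1 above Foxa2 and Foxb1 above Foxp2. At E17.5 Foxp4 (13.2 ± 6.43), Foxp2 (11.1 ± 3.58) and Foxp1 (8.18 ± 1.58) came first, and Foxd1 (1.35 ± 0.762) and Foxa2 (0.758 ± 0.193) last. Neighbours overlapped there too, apart from Foxb1 (4.64) above Foxc1 (3.02) and Foxc1 above Foxd1. The order of the first 2 rests on wild type replicate 1: without it Foxp2 (12.8 ± 1.42, n = 3) lay above Foxp4 (mean 9.97, highest 11.1), and in humanized samples the means were 13.9 ± 3.52 for Foxp2 and 10.1 ± 1.33 for Foxp4. The exon length used for Foxp1 and Foxp2 joins many transcripts (16169 and 17281 bases), which lowers their RPKM. RPKM of Foxb1 is lowered too, as the unstranded column drops reads shared with its antisense lncRNA. In wild type at E11.5 that column held 161 to 281 Foxb1 reads per sample, and the reverse-strand column 311 to 479. The place of Foxb1 in both orders may therefore be too low.

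The 37 other Fox genes are given for context. Of these, 24 were tested in wild type, of which 7 rose and 7 fell. In humanized samples 24 were tested, of which 7 rose and 11 fell. Foxo6 (2.89 ± 0.36) and Foxr2 (2.52 ± 0.49) were among those that rose in wild type. The 3 largest falls in wild type were those of Foxn4 (-4.08 ± 0.59), Foxm1 (-3.90 ± 0.24) and Foxl1 (-2.58 ± 0.43). Foxm1, a factor of cycling cells, went from 115 to 151 CPM to 6.53 to 12.3, and all 4 cycling markers (Mki67, Top2a, Ccnb1 and Cdk1) fell. Foxj1, the regulator of motile cilia, rose by 1.82 ± 0.40 (10.6 to 39.4 CPM at E17.5, the highest in replicate 1). Among the family members of mesenchyme and vessel wall, Foxf2 fell by 0.67 ± 0.26 (adjusted p = 0.0496), while Foxc2 (-0.67 ± 0.32) and Foxs1 (-0.13 ± 0.59) did not pass the test in wild type. In humanized samples Foxc2 (-1.53 ± 0.20) and Foxf2 (-1.17 ± 0.15) fell, and Foxs1 (-0.78 ± 0.36) did not pass. None of the 8 members was on the list of telencephalic markers used here, and the part of telencephalic tissue in their values was not tested. As a check of that neighbouring tissue, Tbr1 and Neurod6, markers of cortical neurons, rose by 6.23 ± 0.45 and 7.56 ± 0.53 on the log2 scale in wild type. Eomes, Lhx6 and Bcl11b rose as well, while Emx1 and Gsx2, markers of telencephalic progenitors, fell. Neurod6 and Eomes had too few reads in the E11.5 samples to be tested between genotypes, so the size of their rises rests on few reads there.

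The genotype comparison asked whether the human hs754 sequence changed the members' RNA. No gene was called at E11.5 (0% of 17816 tested, 1058 of them at an unadjusted p under 0.05), at E17.5 (0% of 18763, 207 at an unadjusted p under 0.05) or in the test of the genotype by stage interaction (0% of 20234, 1610 at an unadjusted p under 0.05) by edgeR. DESeq2 called 2 genes at E11.5, 1 at E17.5 and 0 in the interaction, and none was a member. At E11.5 Foxp4 had a log2 difference, humanized minus wild type, of 0.36 ± 0.13 and Foxp2 of -0.42 ± 0.18 (both adjusted p = 0.577 by edgeR). These 2 of the 8 were under 0.05 before adjustment. The other 6 lay between -0.20 and 0.21. At E17.5 the 8 lay between -0.40 (Foxd1) and 0.33 (Foxp2), with an adjusted p of 0.808 or more in edgeR. All 7 thalamic markers were lower in humanized samples at E11.5, with a median log2 difference of -0.5 and none called. They summed to 815 to 1290 CPM there, against 1110 to 1710 in wild type. At E17.5, 5 of the 7 were higher, with a median of 0.28. The part of thalamic tissue in the Foxp2 values was not tested. The stage change of Foxp4 differed between genotypes (humanized minus wild type) by -0.76 ± 0.34, and that of Foxp2 by 0.73 ± 0.34 (both adjusted p = 0.462 by edgeR). Without wild type E17.5 replicate 1 these were -0.36 and 0.53. In simulated counts, changes were planted in genes drawn from all those tested, 67 for each of these folds. The E11.5 test called 20.9% of genes changed 1.5-fold and 62.7% of those changed 2-fold, and the E17.5 test 1.49% and 13.4%. The interaction test called 1.49% and 8.96%. A change of these sizes in a member could thus be missed, above all at E17.5 and in the interaction. The drawn genes were not matched to the members in level, so these are not rates for a member.

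Within groups, the members' deviations from the group mean were compared over the 16 RNA samples, as a description. Foxp2 and Foxp4 had a Pearson r of -0.86, Foxd1 and Foxp4 of 0.78, and Foxp1 and Foxp2 of 0.75. Without wild type E17.5 replicate 1 (15 samples) these were -0.69, 0.56 and 0.63. Pairs with Foxb1 shifted more when that sample was left out. Foxa2 and Foxb1 went from -0.20 to -0.73, Foxb1 and Foxp4 from 0.70 to 0.18, and Foxb1 and Foxp2 from -0.66 to -0.27. Foxa1, Foxa2 and Foxc1 had values between 0.19 and 0.24 with each other, and 0.13 to 0.32 without that sample. These points share libraries, the outlying wild type E17.5 replicate 1 and the transcripts' base composition: GC content was 63.8% for Foxp4 and 42.9% for Foxp2. The genes most like a member by the same measure were En2 and En1 for Foxa2 (both 0.84), midbrain and hindbrain markers whose list summed to 0.827 to 15.8 CPM at E11.5 and 2.77 to 7.80 at E17.5. The part of tissue beyond the diencephalon in the Foxa2 spread was not tested. The most alike were Mustn1 for Foxa1 (0.82), Iqsec2 for Foxb1 (0.96), Gimap6 for Foxc1 (0.78), Etv6 for Foxd1 (0.96), Zfp106 for Foxp1, Dock10 for Foxp2 and Fbl for Foxp4 (0.98 each). Each was picked as the highest of 14826 candidate genes, which by itself raises r, and how high unrelated genes would reach was not tested. Without the 2 samples farthest from the member's median, r ranged from 0.73 (Mustn1) to 0.97 (Zfp106 and Dock10).

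Promoter peaks were taken from the wild type lists, within 1 kb of any start of a gene's coding transcripts, and a mark was called where every replicate had a peak. All 8 members had H3K4me3 at E11.5 and 7 of 8 did at the later stage, beside 65.2% and 65.4% of 21581 protein-coding genes. H3K27ac was called at 7 members at each stage, beside 49.4% and 59.1%. H3K27me3 was called at 6 members at E11.5 and at all 8 later, beside 21.4% and 21.6%. Both H3K4me3 and H3K27me3 were called at 6 and 7 members, beside 19.7% and 18.8%. CTCF, profiled at E17.5, was called at 4 members, beside 38.4%. In the humanized lists the member counts were the same but for H3K27me3 at E11.5, which was called at 5. Peak lists hold no reads, so fold enrichment per replicate is compared, and with 2 against 3 replicates no exact test can go below p = 0.1.

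**Figure D3:**
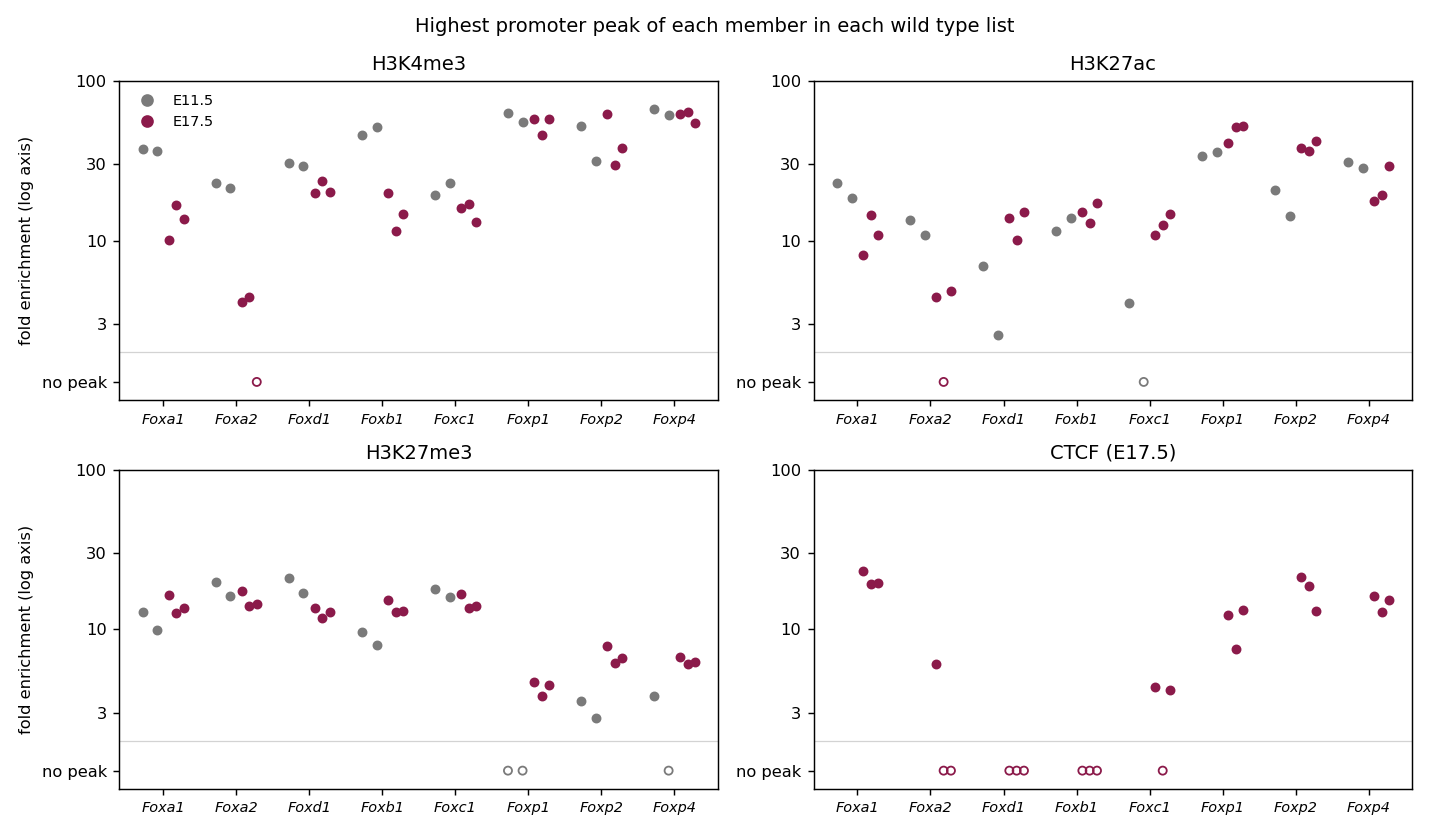
Fold enrichment over local background (log axis) of the highest peak within 1 kb of a start of each member, in each wild type list of H3K4me3, H3K27ac, H3K27me3 and CTCF; open symbols are lists with no peak. H3K4me3 at Foxa2 drops from 21.5 and 23.1 to at most 4.43, and H3K27me3 has no peak at Foxp1 at E11.5 and one in all 3 lists at E17.5.

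The regional members carried broad H3K27me3. At Foxa1, Foxa2, Foxb1, Foxc1 and Foxd1 the peak over the promoter spanned 18.4 to 37.0 kb at E11.5 and 23.3 to 52.7 kb at E17.5 in wild type. The median over all genes with such a peak was 3.1 to 4.3 kb, and these 5 genes lay at the 94.5th percentile or above in every list. The widest was that of Foxa2, 36.9 and 37.0 kb at E11.5 and 52.7, 45.9 and 47.8 kb at E17.5. The fold enrichment of these peaks was 7.96 to 21.1 at E11.5 and 11.8 to 17.4 at E17.5. All 5 genes had H3K4me3 at the same promoters at E11.5. These lists come from whole tissue, so marks on the same allele and marks in different cells cannot be told apart.

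**Figure D4:**
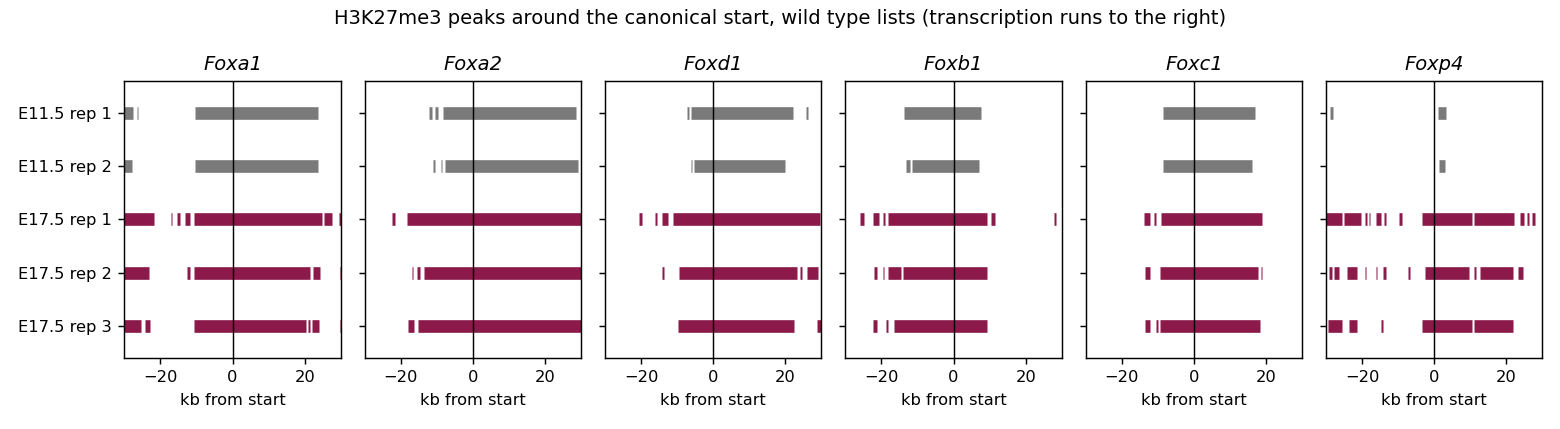
Extent of H3K27me3 peaks within 30 kb of the canonical start (x axis, kb, transcription to the right) in each wild type list, E11.5 in grey and E17.5 in purple. Blocks of 18.4 kb or more cover the starts of Foxa1, Foxa2, Foxd1, Foxb1 and Foxc1 at both stages, while the start of Foxp4 is covered at E17.5.

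At Foxa2, active marks were lower along with the RNA. H3K4me3 had a fold enrichment of 23.1 and 21.5 at E11.5, then 4.10 and 4.43 in 2 lists and no peak in the third. H3K27ac had 13.4 and 10.9 at E11.5, then 4.44 and 4.86 in 2 of 3 lists. Both marks were called at E17.5 with a window of 2.5 kb either side. The humanized lists gave H3K4me3 of 21.6 and 20.7, then 4.40 and 3.31 in 2 of 3 lists. Peaks of H3K27ac covered 10.36 and 8.97 kb of the gene and the 10 kb on either side at E11.5 and 1.20, 2.18 and 3.65 kb at E17.5, while the whole lists grew from 30.5 and 26.7 Mb to 65.5 to 79.7 Mb. Foxa1 kept both marks at lower enrichment: H3K4me3 went from 36.5 and 37.5 to between 10.1 and 16.7, and H3K27ac from 18.6 and 22.8 to between 8.15 and 14.5. A CTCF peak lay near the Foxa1 start in all 3 lists (19.2 to 23.1), a call lost with a window of 500 bp.

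Foxd1 and Foxc1 fell in RNA, while H3K27ac at their promoters was higher at E17.5 in the wild type lists. At Foxd1, H3K27ac had a fold enrichment of 6.91 and 2.55 at E11.5 and of 10.1 to 15.2 at E17.5, while H3K4me3 went from 29.3 and 30.6 to between 19.8 and 23.5. At Foxc1, H3K27ac had a peak in 1 of 2 lists at E11.5 (4.05) and in 3 of 3 at E17.5 (10.9 to 14.7), and it was called at E11.5 with a window of 2.5 kb, while H3K4me3 went from 19.4 and 23.1 to between 13.0 and 16.9. The humanized lists gave H3K27ac at Foxc1 in 1 of 2 lists (4.57) and then 3 of 3 (8.21 to 14.4). At Foxd1 they gave 9.55 and 7.83, then 7.60 to 9.96, so the stages overlapped at Foxd1 there. Foxb1, with no stage call in RNA, had H3K4me3 of 45.7 and 51.2 at E11.5 and of 19.8 or less at E17.5. H3K27ac at Foxb1 was 11.4 and 13.8, then 12.9 to 17.3. Cover by H3K27ac peaks went from 3.51 and 0.80 kb to between 11.27 and 14.07 kb at Foxc1 and from 8.01 and 5.81 kb to between 15.25 and 16.91 kb at Foxb1, as the lists grew. At Foxd1 it was 2.80 and 2.74 kb, then 2.78, 3.23 and 2.85 kb.

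The Foxp genes had strong active marks, and H3K27me3 of lower enrichment than the regional members. H3K27me3 had no peak within 1 kb of a Foxp1 start in either wild type E11.5 list (1 of 2 humanized lists, 2.68) and had 3.79 to 4.65 in all 3 E17.5 lists. At Foxp2 it went from 2.78 and 3.56 to between 6.12 and 7.87, and at Foxp4 from 1 list of 2 (3.83) to 3 of 3 (6.04 to 6.68). The other E11.5 list had a Foxp4 peak of 3.90 that began 1.22 kb downstream of the start, and with a window of 2.5 kb the mark was called at E11.5 too. In the humanized E11.5 lists, Foxp2 (3.59) and Foxp4 (4.17) each had a peak in 1 of 2. The E17.5 lists of this mark were longer (27452 to 43700 peaks against 13850 and 19166). With all lists of the mark shortened to 13850 peaks, no member's call changed. RNA of Foxp1 and Foxp2 rose over the same interval and that of Foxp4 fell.

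Inside Foxp2, starts 283.2 to 285.3 kb from the gene's 5′ end lay under an H3K27ac peak of 13.2 and 14.7 at E11.5 and of 36.6 to 42.2 at E17.5, where it spanned 17.0 to 22.2 kb. In the humanized lists it went from 14.7 and 17.7 to between 24.7 and 34.3. A start 295.7 kb in had H3K4me3 in no E11.5 list and in all 3 at E17.5 (8.43 to 9.38), beside a CTCF peak of 13.0 to 21.3. Within that CTCF peak lay a match to the CTCF core motif, the 12 bases in capitals below, shown because no other start of a member had one near a CTCF summit.
Foxp2 CTCF site, chr6:15197461-15197490, plus strand: gctgattttCCACCAGAGGGCcacattact
The core, searched on both strands within 100 bases of the summit, was found in 28.3% to 29.8% of all wild type CTCF peaks, and in 1.82% of the 200-base windows before canonical starts.

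At Foxp4, marks at the inner start, 45.8 kb inside the gene, rose while RNA of the gene fell. H3K4me3 there had a fold enrichment of 5.11 and 4.74 at E11.5 and of 47.9, 51.8 and 44.8 at E17.5. The humanized lists gave 6.36 and 4.62, then 34.0, 42.6 and 46.1. H3K27ac went from 9.62 and 8.19 to between 17.4 and 29.4 in wild type. At the outer start wild type H3K4me3 was between 54.2 and 67.2 at both stages, and H3K27ac went from 30.9 and 28.5 to between 9.02 and 17.6 (humanized lists 38.2 and 30.8, then 9.39 to 18.6). Stage ranges did not overlap for H3K4me3 at the inner start in either genotype. Gene counts pool all transcripts, so RNA from the inner start was not measured apart. At Foxp1, the canonical start 493.7 kb inside the gene had H3K4me3 of 21.2 and 32.6 at E11.5 and 45.6 to 58.1 at E17.5, while the outer start had 62.8 and 55.0, then 33.9 to 57.7. The humanized lists gave 41.1 and 42.9 at the canonical start, then 31.1 to 51.2, so the stages overlapped there.

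**Figure D5:**
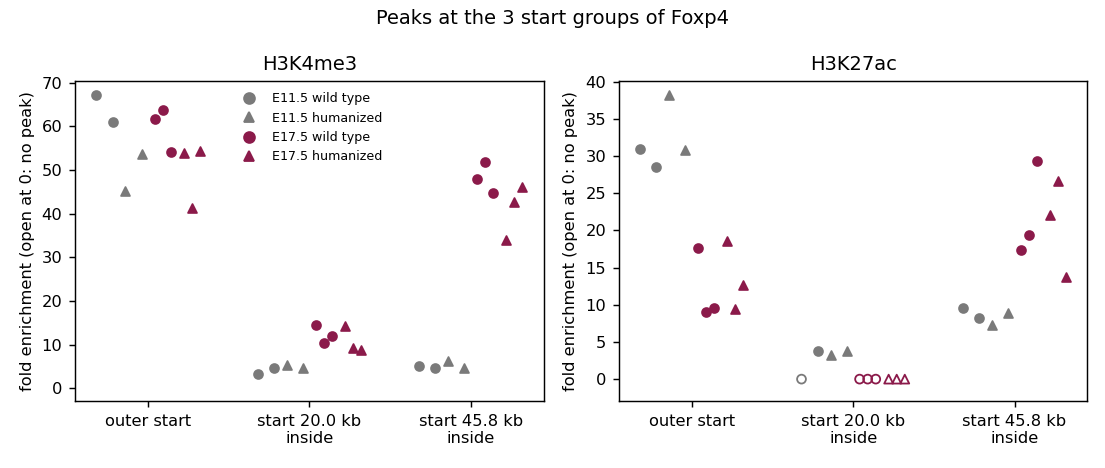
Fold enrichment of H3K4me3 and H3K27ac peaks (y axis) at the 3 start groups of Foxp4 (x axis) in each list, by stage (grey E11.5, purple E17.5) and genotype (circles wild type, triangles hs754-humanized); open symbols at 0 are lists with no peak. H3K4me3 at the start 45.8 kb inside the gene is 6.36 or less at E11.5 and 34.0 or more at E17.5.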

How the data were processed

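RNA-seq and ChIP-seq samples were grouped by assay, stage and genotype from their labels. The members, gene lists and tests were chosen with earlier results of these data known. The authors aligned poly(A) RNA reads to mm39 with STAR (2.7.9a) and deposited raw counts per gene, unstranded and for each strand. They aligned ChIP reads with Bowtie2 (2.4.2) and called peaks per replicate with MACS2 (2.2.7.1). Each deposited peak has a fold enrichment ratio and the -log10 of its p-value and q-value. How H3K27me3 peaks were called is not given in the sources used here, and the H3K27ac antibody lot is described as also binding an acetylated H2B residue. Input samples were left out, and some genes that the lists or the naming rule cover are not reported here.

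Unstranded counts were tested with edgeR (4.0.16, R 4.3.3): filterByExpr, TMM, quasi-likelihood test, adjusted p under 0.05. Reads on no gene, 48.1% to 58.4% of a library, were left out. CPM used TMM over all 16 samples. SE is the log2 fold change over the square root of F. Promoters used GENCODE M39 starts, a window of 1000 bp either side and an overlap of at least 1 bp. Besides the 8 members, other Fox genes were named from a set list and as the 3 largest called rises and falls. Genes alike in pattern were the 3 with the highest r, of which the first is given, and 2 for Foxa2. Tests were checked on simulated counts. At E17.5, deviations of same-numbered samples of the 2 genotypes had r = 0.57, 0.64, 0.11 and 0.27. These pass a rule that each be over 0.1, which those at E11.5 (0.03 to 0.21) do not. Yet at E17.5 only wild type replicates 1 and 2 were closest to the same number. Replicate 3 was closest to humanized replicate 4, and replicate 4 to humanized replicate 2. Pairing by number is thus not shown, and the main genotype tests took no account of it. Each replicate is a pool of 1 litter. Alternatives were DESeq2 (1.42.0), its size factors, no filter, the reverse-strand column, 1 fit of all 16 samples, a replicate block, GC offsets in 20 bins and each sample left out. For peaks they were other windows, starts, thresholds and overlaps, and lists of equal length.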

Additional observations from a re-analysis of the deposited data

Results flagged for a closer look

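Of 32 groups of 4 samples (8 members in 4 groups), 3 held a sample far from the others by Dixon's test. Chance gives such a sample in about 1 of 20 groups. Foxb1 in wild type E17.5 replicate 1 had 22.9 CPM against 10.4 to 11.3 in the other 3 samples. Foxp4 in the same sample had 124 CPM against 50.2 to 60.6. Foxb1 in humanized E17.5 replicate 3 had 10.4 CPM against 13.7 to 13.8. No member's stage change differed between the genotypes at an adjusted p under 0.05, in a test that called 8.96% of simulated 2-fold changes.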

How the results depend on the processing

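Of 656 values of single members under alternatives, 614 kept their direction and their side of the threshold, 29 changed sign, 12 lost the call and 1 gained it. The 12 lost calls were those of Foxp1 and Foxp4 in the wild type stage comparison, and the one gained was Foxb1 in the humanized stage comparison with GC offsets (0.74). All sign changes were in values that passed no threshold. With GC offsets, which were chosen after the data were seen, they were Foxa2 (-0.10) and Foxb1 (-0.13) at E11.5, Foxa2 (0.06), Foxb1 (0.23), Foxc1 (0.09) and Foxp4 (0.00) at E17.5, and Foxa2 (0.13), Foxb1 (0.33) and Foxc1 (0.25) in the interaction. Foxb1 at E11.5 was -0.01 with DESeq2's size factors and -0.06 on the reverse strand, and Foxc1 was 0.01 in 1 fit of all samples. Over samples left out, the log2 values ranged from -0.16 to 0.34 for Foxb1 in the wild type stage comparison. At E11.5 they ranged from -0.14 to 0.12 (Foxb1), -0.10 to 0.07 (Foxc1) and -0.03 to 0.27 (Foxa2). At E17.5 they ranged from -0.21 to 0.25 (Foxb1), -0.62 to 0.06 (Foxd1), -0.51 to 0.02 (Foxp4) and -0.02 to 0.16 (Foxa1), and for Foxb1 in the interaction from -0.26 to 0.23. The causes were not tested. Between genotypes, DESeq2 called 2 genes (E11.5) and 1 (E17.5), and 1 fit of all samples called 1 at E11.5. With the replicate block, the stage comparisons called 9466 and 14454 genes (10356 and 14601 without), the genotype comparisons and the interaction 0, and the block changed no member's call but that of Foxp1 in wild type. Leaving out 1 sample gave 9147 to 13994 wild type and 14217 to 15103 humanized stage calls. Of 56 combinations of member, mark and stage, 47 were called, and 44 to 53 under the alternatives. In them Foxa1, Foxp1 and Foxp4 lost CTCF where 500 bp of the window had to be covered, and Foxp2 lost H3K27me3 and Foxd1 H3K27ac at E11.5 with -log10 q of at least 5. Foxp4 also lost CTCF with the canonical start alone, and Foxa1 with a window of 500 bp. With 2.5 kb either side, calls were gained for CTCF (Foxa2, Foxd1), H3K27ac (Foxc1 at E11.5, Foxa2 at E17.5), H3K27me3 (Foxp4 at E11.5) and H3K4me3 (Foxa2 at E17.5), and leaving out 1 list gained these last 4 as well as CTCF at Foxc1. Peak lists give no read depth.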
